A study of Mus musculus with 32 samples.

Results

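The 7 genes described here, Mbp, Mog, Mag, Mobp, Cnp, Cldn11 and Mal, encode proteins of the myelin that oligodendrocytes wrap around axons in the brain and spinal cord. They were taken by name, with earlier results of these data known, from a table of 27179 genes measured in RNA pulled down with an antibody against m6A, the N6-methylated form of adenosine in RNA, and all 7 were found. The RNA came from brain, heart, kidney and liver of mice, each organ either flash frozen or fixed in 10% formalin and embedded in paraffin (FFPE, the form in which pathology archives keep tissue). The labels give no strain, age, genotype or number of animals, and no treatment other than preservation. RNA of every group was extracted with Trizol and sheared by ultrasound for 20 min before the pulldown, and FFPE tissue was deparaffinised first. The labels list 16 m6A samples, 2 with different numbers in their titles for each organ and preservation, and 16 input samples, in 16 groups. In the table each of the 8 m6A groups has 1 column, called a library below. The sources used here do not say if it is 1 of the 2 samples or the sum of both.

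Myelin is a stack of oligodendrocyte membrane that insulates axons and lets impulses travel fast. Compact myelin, in which the membranes are pressed together, depends on Mbp, the basic protein that glues their cytoplasmic faces, and contains Mobp, a second small basic protein, and Mal, a proteolipid of lipid-rich membrane domains. Mag is an adhesion protein on the innermost membrane, facing the axon, and Mog lies on the outermost surface of the sheath. Cnp is a phosphodiesterase of the non-compact parts of myelin, and Cldn11 forms the tight junctions between its layers. Mal is also known from the apical membrane of kidney tubule cells. Messenger RNA of myelin genes, that of Mbp above all, is carried out into the processes of the oligodendrocyte.

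No 2 of the genes share a chromosome (GRCm38.p6, the assembly behind mm10). They lie as follows, Mbp being placed with its levels below: Mog on chromosome 17 (37010740 to 37023398), Mag on 7 (30899175 to 30914922), Mobp on 9 (120149742 to 120181488), Cnp on 11 (100574909 to 100591875), Cldn11 on 3 (31149920 to 31164326) and Mal on 2 (127633226 to 127656695). Each gene has 1 value, with no split into exons or untranslated regions. The annotated span of Cnp overlaps that of Dnajc7. The sources used here do not say if reads were counted by strand, so reads in the shared stretch cannot be told apart here.

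The 250 bases before a listed start are shown for the 4 members whose sequence holds a match to either of the motifs below. For Mag and Cnp these bases reach into the annotated span given above, so they do not lie wholly before the gene. The sequences are shown since the genes were higher in brain together, to let the letters be compared. They are RefSeq promoters of GRCm38.p6, read in the direction of the gene, for Mog (chr17:37023399-37023648, minus strand), Mag (chr7:30914864-30915113, minus strand, the first of its 3 listed starts), Mobp (chr9:120149492-120149741, plus strand) and Cnp (chr11:100574689-100574938, plus strand). Capitals mark matches to the core letters of the motif of Myrf, the myelin regulatory factor (CTGGCAC or CTGGTAC), or to those of Sox factors such as Sox10 (ACAAAG or ACAATG), on either strand.
Mog: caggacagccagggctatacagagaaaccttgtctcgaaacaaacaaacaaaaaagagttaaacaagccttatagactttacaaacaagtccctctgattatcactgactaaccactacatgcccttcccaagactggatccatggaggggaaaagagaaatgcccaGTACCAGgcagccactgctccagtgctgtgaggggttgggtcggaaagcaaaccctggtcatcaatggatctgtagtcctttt
Mag: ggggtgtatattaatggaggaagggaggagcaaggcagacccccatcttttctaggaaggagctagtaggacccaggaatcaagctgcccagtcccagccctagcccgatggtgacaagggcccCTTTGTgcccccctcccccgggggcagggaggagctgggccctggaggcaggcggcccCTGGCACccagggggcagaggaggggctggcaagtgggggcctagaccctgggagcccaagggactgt
Mobp: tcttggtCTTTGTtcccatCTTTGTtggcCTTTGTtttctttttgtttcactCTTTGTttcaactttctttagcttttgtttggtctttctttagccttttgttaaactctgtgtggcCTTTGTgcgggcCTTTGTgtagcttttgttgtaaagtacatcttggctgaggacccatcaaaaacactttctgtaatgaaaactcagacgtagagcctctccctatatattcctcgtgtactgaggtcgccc
Cnp: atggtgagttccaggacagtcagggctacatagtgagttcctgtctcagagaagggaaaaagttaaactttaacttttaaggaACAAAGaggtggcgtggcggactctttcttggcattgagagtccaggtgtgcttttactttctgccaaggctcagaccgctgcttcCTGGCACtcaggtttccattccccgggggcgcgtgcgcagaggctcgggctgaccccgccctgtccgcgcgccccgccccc
The Myrf letters stood in promoters of 3 of the 6 members with a listed promoter (Mog, Mag and Cnp), and in promoters of 6.79% of all 27025 genes with one (5.93% of all 32851 promoters of the same length). The Sox letters stood in 3 of 6 members (Mag, Mobp and Cnp), with 6 matches in Mobp, and in promoters of 28.2% of all genes (25.2% of all promoters). Both kinds of match were present in Mag and Cnp. The letters CAGCTG and TATAAA were in no promoter of the 6 members and in promoters of 14.7% and 14.3% of all genes (13.0% and 12.4% of all promoters). Cldn11 and Mal held none of the motifs searched, and the motifs were chosen with these promoters in view. A match is a description of the letters and no evidence of binding.

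Levels are log2 CPM, with 0.5 added to each count and a library size that was scaled before deposit, and are compared for the same gene across libraries. The libraries held between 9603050 (FFPE brain) and 21523379 (frozen brain) gene counts, and ribosomal transcripts took 50.4% to 79.7% of them. Outside ribosomal transcripts 3050241 (FFPE liver) to 8004550 (frozen brain) counts were left, so that 3 counts correspond to a log2 level of -3.29 in frozen brain and -0.86 in FFPE liver. Of the marker lists, 15 of 15 neuron genes were higher in brain, against 30.2% of all tested genes. In kidney, 10 of 10 loop, distal tubule and collecting duct genes exceeded the mean of heart and liver, against 14.9% of all tested genes. Some genes of these lists entered the test only through the brain or the kidney libraries, so their calls were partly set by the filter. Cardiomyocyte genes had a median level of 10.07 in frozen heart and hepatocyte genes one of 9.66 in frozen liver. Input was not analysed, so abundance and methylation of a transcript cannot be told apart in these levels. In whole tissue, fewer cells of a type and less RNA per cell cannot be told apart either. The intervals below reflect counting error alone: without molecular identifiers, reads are not independent molecules.

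All 7 myelin genes were higher in both brain libraries than in any of the 6 others, and this was so for 26.6% of all tested genes. Frozen brain was the highest and FFPE brain the second highest library for each of the 7. Frozen heart came next for 6 of them, and kidney for Mal.

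Mbp lies on chromosome 18 (82475091 to 82585637), in a span that overlaps Gm52337 and Rpl21-ps8. With frozen tissue first, here and in the next 6 paragraphs, it had log2 levels of 9.39 and 8.64 (brain), 4.09 and 2.33 (heart), 1.60 and 2.44 (kidney), and 0.43 and 0.24 (liver). The counts behind them were 22921 and 8587 (brain), 221 and 58 (heart), 66 and 105 (kidney), and 13 and 7 (liver). Mbp was thus counted in all 8 libraries, and the gap from FFPE brain down to frozen heart was 4.55 on the log2 scale. Among neighbours in this order, FFPE kidney and FFPE heart, FFPE heart and frozen kidney, and the liver libraries had overlapping counting intervals.

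Mobp had log2 levels of 7.03 and 6.05 (brain), 1.93 and -1.37 (heart), -2.65 and -3.70 (kidney), and -2.01 and -3.66 (liver). The counts were 4469 and 1422 (brain), 49 and 4 (heart), 3 and 1 (kidney), and 2 and 0 (liver). Outside brain, only frozen heart and FFPE heart had more than 3 counts, and all neighbours below frozen heart had overlapping intervals.

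Mag, the adhesion protein of the axon-facing membrane, had log2 levels of 5.81 and 5.00 (brain), 1.41 and -4.54 (heart), -0.93 and -5.29 (kidney), and -2.01 and -2.08 (liver). Its counts were 1918 and 688 (brain), 34 and 0 (heart), 11 and 0 (kidney), and 2 and 1 (liver). The levels at 0 counts are set by the 0.5 added and the library size, and have no order among themselves. Frozen heart and frozen kidney held Mag counts where the FFPE library of the same organ held none.

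Mog had log2 levels of 4.13 and 3.27 (brain), -0.79 and -2.22 (heart), -2.65 and -5.29 (kidney), and -2.01 and -3.66 (liver). Its counts were 598 and 207 (brain), 7 and 2 (heart), 3 and 0 (kidney), and 2 and 0 (liver). Outside brain only frozen heart exceeded 3 counts, and all neighbours among the 6 had overlapping intervals.

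Cnp had log2 levels of 6.95 and 5.86 (brain), 2.44 and 1.53 (heart), 1.39 and 0.39 (kidney), and 1.03 and 2.31 (liver). With counts of 4238 and 1244 (brain), 70 and 33 (heart), 57 and 25 (kidney), and 20 and 31 (liver), it had more than 3 counts in all 8 libraries. Both liver libraries held Cnp counts, and the 6 libraries outside brain lay between 0.39 and 2.44, with overlapping intervals between all neighbours.

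Cldn11 had log2 levels of 5.18 and 4.66 (brain), 0.06 and -2.96 (heart), -3.87 and -1.83 (kidney), and -4.33 and -2.08 (liver). Its counts were 1241 and 544 (brain), 13 and 1 (heart), 1 and 5 (kidney), and 0 and 1 (liver). All libraries outside brain overlapped their neighbours.

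Mal had log2 levels of 6.29 and 5.61 (brain), 2.22 and 1.69 (heart), 5.23 and 5.32 (kidney), and -0.87 and -2.08 (liver). Its counts were 2671 and 1050 (brain), 60 and 37 (heart), 824 and 781 (kidney), and 5 and 1 (liver). Mal was the one member with a second organ near the brain level: FFPE brain lay only 0.29 above FFPE kidney, although their counting intervals (46.0 to 51.9 and 37.3 to 43.0 scaled CPM) did not overlap. The kidney libraries overlapped each other.

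**Figure D1:**
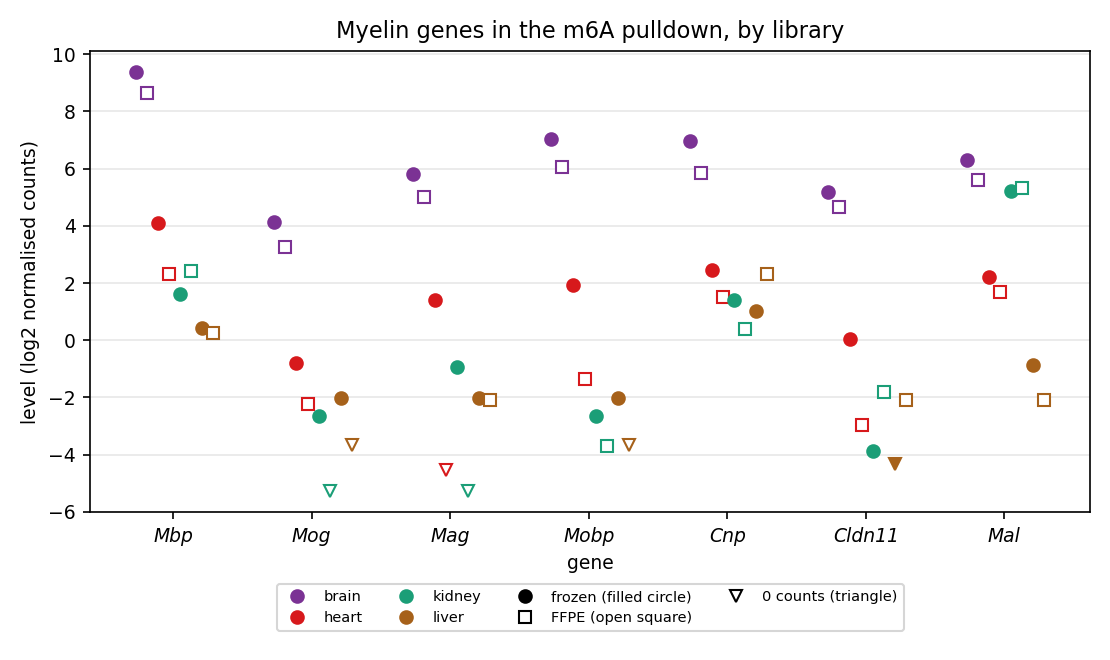
Log2 level of each myelin gene (y axis, log2 normalised counts) in the 8 libraries, coloured by organ, with frozen tissue as filled circles, FFPE as open squares and libraries at 0 counts as triangles. Brain stands highest for all 7 genes, and kidney follows at 5.23 and 5.32 for Mal alone.

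The brain comparison asks which genes differ between brain and the mean of the other organs. All 7 myelin genes were higher in brain (adjusted p under 0.05), against 30.2% of the 14864 genes tested. The median difference of the 7 was log2 7.16, and that of all tested genes was 0.07. The difference was largest for Mobp, at log2 8.45 ± 0.58 (SE; limma, adjusted p = 1.01e-05). Its frozen libraries differed by 7.94 and its FFPE libraries by 8.96. Mag was higher by 7.64 ± 1.09 (adjusted p = 4.40e-04), Cldn11 by 7.42 ± 1.02 (adjusted p = 3.45e-04) and Mbp by 7.16 ± 0.40 (adjusted p = 4.09e-06). Mog was higher by 6.47 ± 0.68 (adjusted p = 8.20e-05) and Cnp by 4.89 ± 0.44 (adjusted p = 3.82e-05). Mal had the smallest difference, 4.03 ± 0.26 (adjusted p = 7.91e-06), and its frozen libraries differed by 4.09 and its FFPE libraries by 3.97.

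The errors come from a limma fit over the 8 libraries with additive terms for organ and preservation, with 3 residual degrees of freedom. They measure how alike frozen and FFPE tissue behaved, not the spread between animals. Mog, Mag, Mobp and Cldn11 entered the test only through the brain libraries (a log2 level above 0 in at least 2 libraries was required), and 3 members, Mbp, Cnp and Mal, would have entered without brain. The log2 differences of genes at 0 to 3 counts outside brain depend on the 0.5 added. With 2 counts added, the 7 stayed called, with a median of 6.51.

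In kidney, 1 of the 7 genes was higher than the mean of heart and liver: Mal, by log2 5.04 ± 0.28 (SE; limma, adjusted p = 1.72e-05). The difference was 4.56 between frozen and 5.52 between FFPE libraries. Of all tested genes, 14.9% were higher. The other 6 did not pass: Mbp differed by 0.25 ± 0.43 (adjusted p = 0.728), Cldn11 by -0.52 ± 1.08 (0.775), Cnp by -0.94 ± 0.47 (0.190), Mag by -1.30 ± 1.16 (0.469), Mog by -1.80 ± 0.72 (0.109) and Mobp by -1.90 ± 0.62 (0.0544). Mbp passed in kidney as well when libraries were scaled by total gene counts (1.29, adjusted p = 0.0204), where 40.0% of all genes were higher, and when both heart libraries were left out (1.68, adjusted p = 0.00967), where 17.0% were. None of the 7 was called lower in kidney, against 10.3% of all genes, but 3 were under some of the alternatives. Mobp was lower without FFPE heart (-2.41, adjusted p = 0.0164, against 8.54% of all genes), centred on medians (-2.08, adjusted p = 0.0402, against 13.7%) and with 2 counts added (-1.92, adjusted p = 0.0242, against 13.6%). Mobp differed by only -0.34 when both heart libraries were left out (adjusted p = 0.722), and by -1.38 without frozen heart. Mog was lower with 2 counts added (-1.44, adjusted p = 0.0381) and without a trend in the fit (-1.80, adjusted p = 0.0400, against 7.08%). Cnp was lower without frozen liver (-1.51, adjusted p = 0.00161, against 10.3%).

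Set directly against kidney, a comparison added after the level of Mal in kidney had been seen, 6 of the 7 genes were higher in brain, and 24.6% of all tested genes were. Mal differed between brain and kidney by log2 0.67 ± 0.32 (SE; limma, adjusted p = 0.122), and its frozen kidney level was 48.2% of that in frozen brain (95% exact interval 44.5 to 52.2%). In FFPE tissue Mal in kidney was 82.0% of brain (74.6 to 90.0%), and 38.6% when scaled by total gene counts. The call for Mal changed with the setting: without frozen or FFPE liver its adjusted p was 0.0491 and 0.0470, and with voom weights, where it differed by 0.75, it was 0.00304. The kidney level of the other 6 genes was at most 2.10% of brain in frozen tissue, the highest being Cnp, and at most 2.21%, again Cnp, in FFPE tissue.

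**Figure D2:**
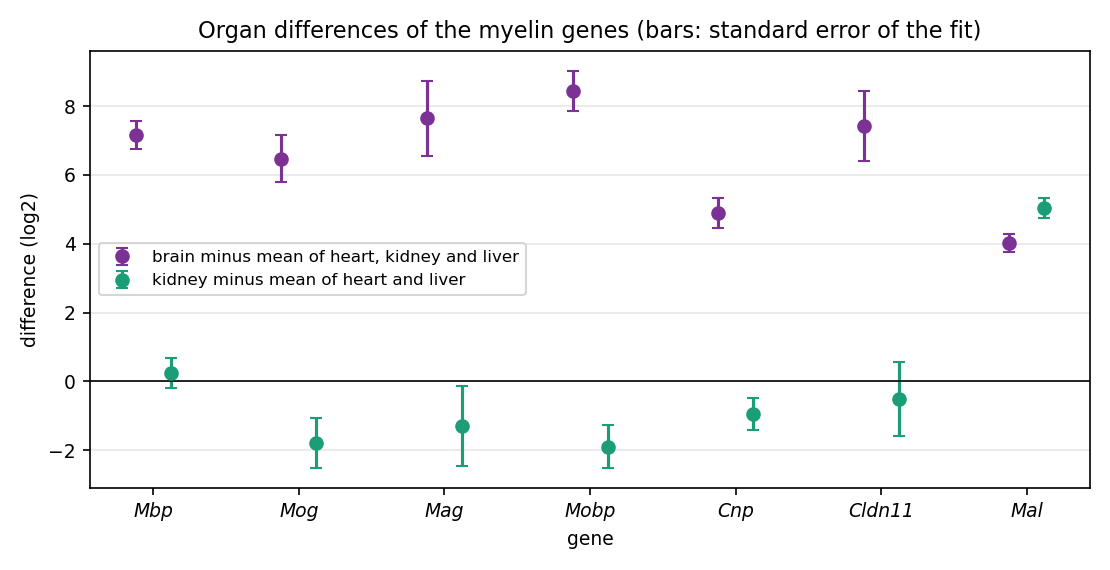
Log2 difference (y axis) of each myelin gene in brain against the mean of heart, kidney and liver, and in kidney against the mean of heart and liver; bars are the standard error of the fit over 8 libraries. Every brain difference lies above 4, and the kidney difference of Mal, 5.04, stands apart from those of the other 6, which lie between -1.90 and 0.25.

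Other oligodendrocyte genes were mostly higher in brain too. Of all 14864 tested genes 4491, or 30.2%, were higher in brain and 3928 were lower. Of 36 listed oligodendrocyte genes 34 were tested, 26 were higher in brain and 1, Cers2, a ceramide synthase, was lower, with a median of log2 4.25. Nfasc, an adhesion protein of the node and paranode, was highest at 7.93 ± 0.90 (SE; limma, adjusted p = 1.25e-04). At the other end were Cers2 at -1.41 ± 0.25 (adjusted p = 0.00129) and Gjb1, a gap junction gene that liver also expresses, at -0.07 ± 0.39 (adjusted p = 0.885). Among 10 genes of oligodendrocyte precursors, 8 were higher in brain and 1, Sox6, was lower, with a median of 4.35. In both lists some of the genes called higher entered the test only through the brain libraries, so their calls were partly set by the filter.

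In kidney, 9 of the 34 other oligodendrocyte genes tested were higher than the mean of heart and liver. The 2 called lower were Trf and Cntn2. Of all tested genes 14.9% were higher and 10.3% lower. Of the 9, Ugt8a, which makes galactosylceramide, was higher by log2 6.40 ± 0.48 (SE; limma, adjusted p = 6.21e-05), Gal3st1, which sulfates it, by 3.71 ± 0.83 (adjusted p = 0.0116), and Fa2h, which hydroxylates its fatty acid, by 3.41 ± 0.77 (adjusted p = 0.0123). These 3 enzymes of glycolipid synthesis were picked out after their values were seen, and Cers2, which makes the ceramide they use, differed by 0.07 ± 0.26 (adjusted p = 0.881). Ugt8a had levels of 4.81 and 4.45 (brain), -0.79 and -2.96 (heart), 4.59 and 4.53 (kidney), and -1.52 and -2.08 (liver). Like Mal, it was high in all 4 brain and kidney libraries and low in the 4 others. The remaining 6 were Enpp6 (3.85), Aspa (3.58), Plekhh1 (2.79), Pllp, a proteolipid related to Mal (2.57), Enpp2 (2.52) and Gjb1 (1.54). A gene above this mean can still be lower in kidney than in liver. With frozen tissue first, Gjb1 had levels of 3.12 and 2.26 in kidney and 6.59 and 7.26 in liver. Pllp had 2.37 and 1.43 in kidney and 2.57 and 1.19 in liver.

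**Figure D3:**
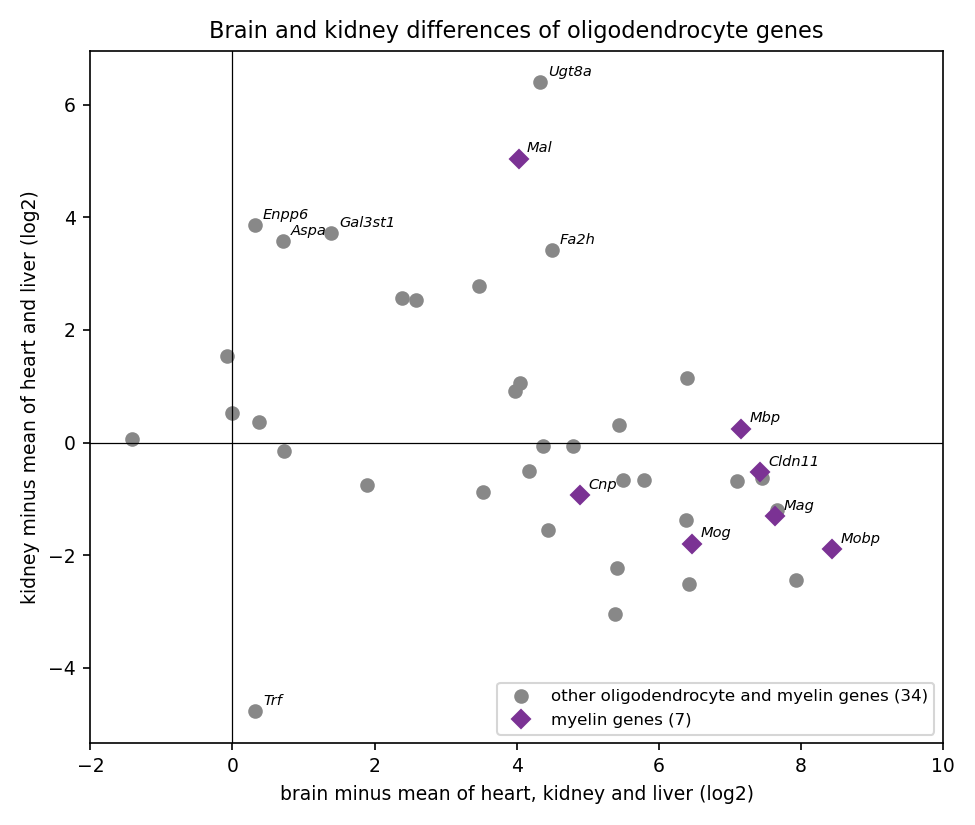
Kidney difference (y axis, log2, kidney minus the mean of heart and liver) against brain difference (x axis, log2, brain minus the mean of heart, kidney and liver) for the 7 myelin genes (diamonds) and 34 other oligodendrocyte genes (circles). Both axes share heart, kidney and liver libraries. Mal at 5.04 and Ugt8a at 6.40 lie highest, while the other 6 myelin genes have kidney differences of 0.25 or less.

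Schwann cells make the myelin of peripheral nerve with partly other proteins. Of 15 Schwann cell genes 8 were tested, 4 were higher in brain (Drp2, Pou3f1, Cdh19 and Gjc3) and 1, Prx, the periaxin gene of Schwann cells that other organs also express, was lower, with a difference of log2 -3.22. Drp2, Pou3f1 and Gjc3 entered the test only through the brain libraries. Of all tested genes 30.2% were higher in brain.

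Frozen heart held a low level of all 7 myelin genes. As a share of frozen brain, Mbp stood at 2.54% (95% exact interval 2.22 to 2.90%), Mobp at 2.89% (2.14 to 3.83%), Mag at 4.68% (3.23 to 6.56%), Mog at 3.09% (1.24 to 6.40%), Cnp at 4.36% (3.39 to 5.52%), Cldn11 at 2.76% (1.47 to 4.74%) and Mal at 5.93% (4.51 to 7.65%). Their median was 3.09%, or 1.30% when both libraries were scaled by total gene counts. Frozen kidney had a median of 0.784% and frozen liver one of 0.356%, or 0.805% and 0.150% with total gene counts.

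Against medians of 1.01% in FFPE kidney and 0.323% in FFPE liver, the 7 shares of FFPE brain had a median of 1.25% in FFPE heart. Mbp stood at 1.25% (0.946 to 1.61%), Mobp at 0.519% (0.141 to 1.33%) and Mag, at 0 counts, below an upper limit of 0.993%. The intervals of these 3 lay below those of frozen heart. Cnp at 4.90% (3.36 to 6.92%) and Mal at 6.51% (4.56 to 9.03%) had intervals that overlapped those of frozen heart, as did Mog at 1.78% (0.215 to 6.53%) and Cldn11 at 0.339% (0.00858 to 1.90%).

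Neuron and astrocyte lists were mostly lower in FFPE heart as well, with 13 of 15 and 10 of 12 tested genes lower, against 49.4% of all tested genes. Other lists varied. In FFPE heart 5 of 6 kidney proximal tubule genes were lower (median -2.07), and 6 of 10 of the loop and distal list (median -2.16). Of the hepatocyte and the cardiomyocyte genes 4 of 10 each were lower, with medians of 0.16 and 0.13. Frozen heart had 22227 genes with a count and FFPE heart 15723. All 15 neuron genes had more than 3 counts in frozen heart and 9 of 15 in FFPE heart, with median levels of 1.93 and -0.84 and none at 0 in either. Their median share of brain was 4.54% in frozen and 0.609% in FFPE heart. The summed level of the neuron list was 79.5 scaled CPM in frozen and 34.8 in FFPE heart, against 1865 in frozen and 1454 in FFPE brain. In kidney it was 10.3 and 8.10, and in liver 6.38 and 5.52. For the 12 astrocyte genes, some of which heart expresses itself, the median share was 5.27% in frozen and 1.42% in FFPE heart. Not every marker went this way: Slc17a7, a glutamate transporter of neurons, had 57 counts in frozen and 142 in FFPE heart, and Gja1, a gap junction gene that heart expresses, 1114 and 1589. The microglia list, whose genes heart macrophages share, had median shares of 74.2% in frozen and 73.0% in FFPE heart. Of the Schwann cell genes, Cdh19 was at 1.68 in frozen and 1.01 in FFPE heart. The part of neuron, astrocyte or Schwann cell RNA in the heart levels of the myelin genes was not tested.

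**Figure D4:**
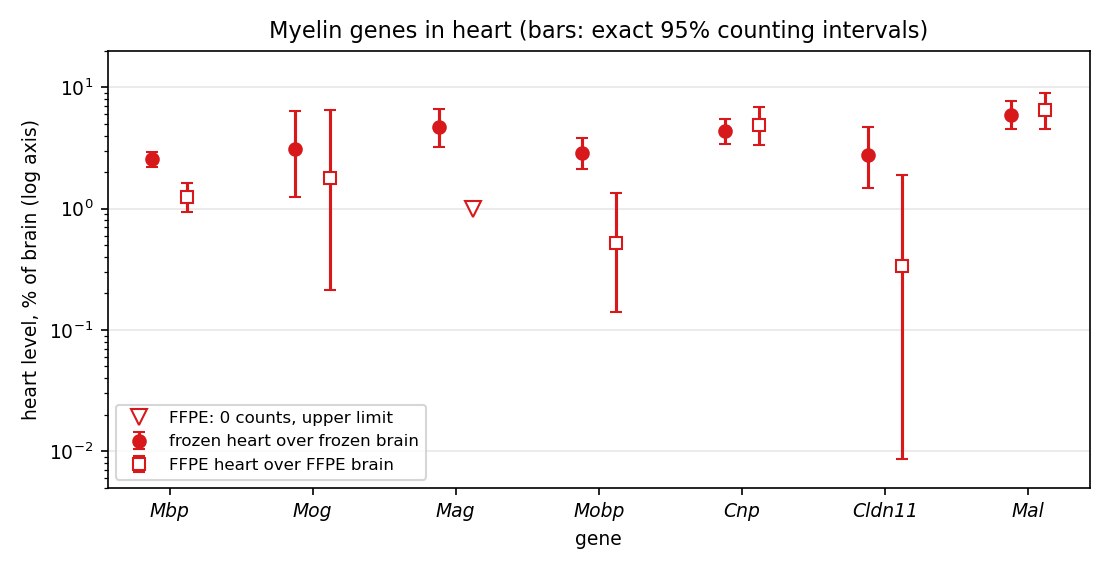
Level of each myelin gene in heart as a percent of its level in brain (y axis, log scale), frozen heart over frozen brain as filled circles and FFPE heart over FFPE brain as open squares, with exact 95% counting intervals; the triangle is the upper limit for Mag, at 0 counts in FFPE heart. Frozen heart lies between 2.54% and 5.93% for all 7 genes, while FFPE heart ranges from 6.51% for Mal to below 0.993% for Mag.

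The preservation comparison asks whether FFPE tissue gives the same profile as frozen tissue. Across the 4 organs none of the 7 genes passed (limma, adjusted p under 0.05), and 0.00673% of all tested genes, 1 of 14864, did. At an unadjusted p under 0.05 there were 4 of the 7 (Mog, Mag, Mobp and Mal) and 2769 of all genes. The differences, FFPE minus frozen, were -2.80 ± 0.95 for Mag (SE; limma, adjusted p = 0.192), -1.75 ± 0.50 for Mobp (0.152), -1.65 ± 0.59 for Mog (0.206), -0.58 ± 0.23 for Mal (0.231), -0.46 ± 0.35 for Mbp (0.495), -0.43 ± 0.38 for Cnp (0.563) and 0.19 ± 0.88 for Cldn11 (0.924). Their median was -0.58, and that of all tested genes -0.07. With voom precision weights, added after the data were seen, Mbp, Mobp and Cnp were lower in FFPE tissue (3 of 7, against 1.22% of all genes), and with scaling by total gene counts Mag was (1 of 7, against 1.20%).

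Within brain, where every member was well counted, all 7 were lower in FFPE than in frozen tissue. Cnp differed by log2 -1.10 (95% exact counting interval -1.19 to -1.0), Mobp by -0.98 (-1.07 to -0.89), Mog by -0.86 (-1.09 to -0.63), Mag by -0.81 (-0.93 to -0.68), Mbp by -0.74 (-0.78 to -0.71), Mal by -0.67 (-0.78 to -0.57) and Cldn11 by -0.52 (-0.67 to -0.37). The median of the 7 was -0.81, while 56.0% of all tested genes were lower in FFPE brain, with a median of -0.08. Neuron genes had a median of -0.24 with 14 of 15 lower, astrocyte genes -0.52 with 10 of 12 lower, other oligodendrocyte genes -0.38 with 29 of 34 lower, and precursor genes -0.08 with 6 of 10 lower. The size depended on scaling: with total gene counts the 7 ran from -0.60 to -0.02 and the median of all genes was 0.41, and all 7 still lay below that median. Each side is 1 library, so these differences carry no test.

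**Figure D5:**
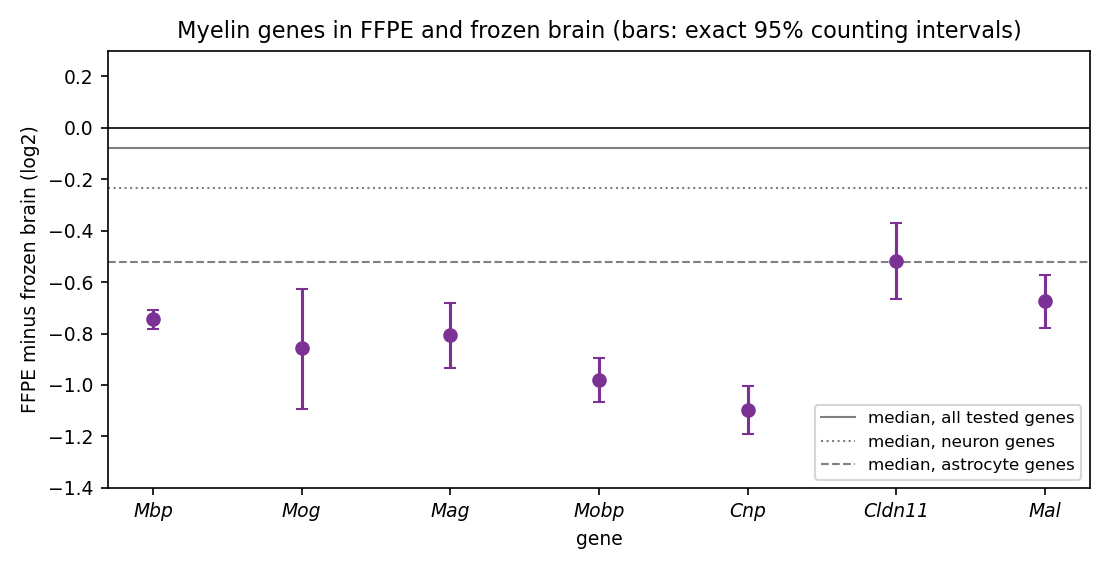
FFPE minus frozen brain (y axis, log2) for each myelin gene, with exact 95% counting intervals; grey lines give the medians of all tested genes, neuron genes and astrocyte genes. The 7 genes lie between -1.10 and -0.52, all below the median of all genes at -0.08.

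In heart all 7 were lower in FFPE tissue as well (49.4% of all tested genes were), with a median of -1.76, from -0.53 for Mal to -3.30 for Mobp among the genes with counts on both sides. In kidney 4 of the 7 were lower (48.5% of all tested genes), or 3 with quantile normalization and 5 with total gene counts. In liver 5 were lower (50.4% of all tested genes), of which Mog, Mag and Mobp rest on 2 counts in frozen and at most 1 in FFPE tissue. Mal in kidney, on 824 and 781 counts, differed by 0.09 (-0.05 to 0.23), and by -0.54 when scaled by total gene counts. Mbp in kidney was higher in FFPE tissue by 0.83 (0.38 to 1.30), and Cnp in liver by 1.28 (0.44 to 2.18).

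The genes outside the members and marker lists whose profile over the 8 libraries was closest to each member, by the root mean square difference of log2 levels after centring each gene, were taken from 5476 genes with a brain level of at least 3. All profiles come from the same 8 libraries, so closeness is a description. For Mbp they were Aplp1 (0.33), Kcnab2 (0.42) and Scn2b (0.51), and for Mog Apba2 (0.33), Jakmip2 (0.44) and Nrsn1 (0.45). For Mobp they were Rims1 (0.43) and the glutamate receptor genes Gria2 (0.61) and Gria1 (0.62), and for Mag Syt4 (0.71), Nrg3 (0.73) and Nol4 (0.74). Cnp lay nearest to Nap1l3 (0.44), Napb (0.48) and Atp6v1g2 (0.50), and Cldn11 to Neurod2 (0.37), Kndc1 (0.52) and Nnat (0.60). The genes nearest to Mal were Mgat3 (0.56), Dmtn (0.63) and Fam107a (0.69), each high in brain and kidney: Mgat3 had levels of 5.25 and 5.43 (brain) and 5.02 and 5.19 (kidney).

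Among the members themselves, Cldn11 and Mbp had the closest profiles, 0.91 apart. Mal was the furthest from the rest, at 2.43 from Mbp and 3.66 from Mag, and the other 6 were 0.91 to 2.10 apart from each other.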

How the data were processed

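Per the labels' protocols, RNA of frozen or FFPE mouse organs was sheared, pulled down with an m6A antibody and made into ribosome-depleted total RNA libraries. Alignment and counting used HISAT2 and featureCounts on mm10, with limma also named, per the submitters' processing notes, which give no versions. The authors deposited log2 normalised counts for 27179 genes in 8 columns. The values themselves show log2 CPM with 0.5 added to each count and a scaled library size. Counts recovered from them were whole for 100.0% of values within 0.001 (relative to 10000 counts for larger values). A further table's 8 columns fit none of the listed samples and are not analysed here.

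Genes above log2 0 in at least 2 libraries (14864) were fitted with limma 3.58.1 (R 4.3.3), with additive organ and preservation terms (3 residual degrees of freedom) and eBayes with a trend on the level, and Benjamini-Hochberg adjustment over all of them. The fit was tried on data simulated from the same additive model, with changes planted in genes of a mean log2 level of at least 3. It does not cover genes of a lower mean level. Differences within 1 organ and shares of brain are single-library values with exact 95% intervals. Other software was Python 3.11.15 (pandas 2.3.3, numpy 2.4.6, scipy 1.17.1, matplotlib 3.10.9). The members and lists were chosen with earlier results of these data known. All 7 members were named, with the 3 nearest profiles of each. List genes were named if they were the 2 highest or lowest in brain or moved against their list. Of the genes this takes, 1 is not reported here. Alternatives were other scalings, filters and weights, 2 counts added, no trend, and leaving out libraries.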

Additional observations from a re-analysis of the deposited data

Results flagged for a closer look

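FFPE and frozen tissue differed in opposite directions between organs for 2 genes, with counting intervals on opposite sides of 0. Mbp was higher in FFPE kidney by log2 0.833 (105 against 66 counts) and lower in FFPE brain (-0.744) and FFPE heart (-1.76). With total gene counts as the scale, Mbp in kidney differed by 0.20 with an interval of -0.25 to 0.67, which spans 0. Cnp was higher in FFPE liver by 1.28 (31 against 20 counts) and lower in FFPE brain (-1.1), heart (-0.916) and kidney (-1.01). With total gene counts, Cnp in liver differed by 0.62, and its interval of -0.22 to 1.53 spans 0 too, so that the opposite directions are no longer set apart by the intervals for either gene. Whether the organs differ was not tested, since each organ and preservation is 1 library, and the span of Cnp overlaps that of Dnajc7.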

How the results depend on the processing

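The brain call held for all 7 members under 17 of the 18 alternatives. The count of all genes higher in brain moved with the scaling. It was 4491 of 14864 as reported, 8234 with total gene counts and 6502 with counts outside ribosomal genes. With the stricter filter (log2 above 1 in at least 4 libraries) 3 were tested and 3 called, and 2 in brain against kidney, since fewer genes entered. In kidney the count of members higher was 2 with scaling by total gene counts and 2 without both heart libraries, Mbp being the second. Members lower in kidney, 0 as reported, were 1 centred on medians, 2 with 2 counts added and 1 without trend. For FFPE against frozen it was 1 with total gene counts and 3 with voom weights, and the cause was not tested. Leaving out 1 library gave 7 in brain, 1 higher in kidney, 0 for FFPE and 6 to 7 for brain against kidney, and 1 lower in kidney without FFPE heart (Mobp) and without frozen liver (Cnp). Mal in brain against kidney was also called with voom weights.

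Directions turned only for genes that were not called. Mbp in kidney was -0.10 with quantile normalization and -0.62 to 1.11 over the libraries left out. Cnp in kidney was 0.11 with total gene counts. Cldn11 in kidney was 0.52 with total gene counts, 0.15 with counts outside ribosomal genes, 0.36 without both heart libraries, and -1.76 to 0.71 over the libraries left out. Cldn11 in FFPE against frozen tissue was -0.010 with 2 counts added, -0.44 with voom weights and -0.50 to 1.26 over the libraries left out. The cause of these turns was not tested.

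No paired analysis was possible because the 8 columns carry no sample number and hold 1 column per group. The count test and levels per length were not run, as the deposited unit is log2 and no exon lengths were used here. Depth limits Mog, Mag, Mobp and Cldn11 outside brain, where most libraries held fewer than 10 counts.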
